A study of Homo sapiens with 6 samples.

Results

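The osteoblast lineage genes described here are 9 genes that mark or direct bone-forming cells: RUNX2, SP7, DLX5, MSX1, MSX2, ALPL, SPP1, IBSP and TNFRSF11B. They were taken by gene symbol from the deposited count table, and all 9 were among its 23228 gene symbols. The cells were U2OS, an established human osteosarcoma line, grown in medium with fetal bovine serum. They were transfected with a lipid reagent, in 3 libraries with siRNAs against ALKBH5 and in 3 with a scrambled siRNA, and RNA was taken at 48 hours. ALKBH5 is a demethylase that takes N6-methyladenosine (m6A) marks off RNA. Both groups received the transfection reagent and an siRNA, and no untransfected cells, second knockdown reagent or rescue were analysed here. Loss of ALKBH5 and other effects of the siRNAs can therefore not be told apart. Whether the libraries of a group are separate cultures is not stated in the labels, and the p-values below then describe only how these libraries spread, possibly for technical reasons.

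RUNX2 is the transcription factor that commits mesenchymal cells to the osteoblast lineage, and it binds DNA with its partner CBFB. SP7 (osterix) acts after RUNX2 in bone formation, while the homeodomain factors DLX5, MSX1 and MSX2 act in the skeleton of the head and limbs and respond to bone morphogenetic protein (BMP) signals. ALPL is the cell-surface phosphatase that frees phosphate for mineral, and SPP1 (osteopontin) and IBSP (bone sialoprotein) are secreted phosphoproteins of bone matrix that bind integrins. TNFRSF11B (osteoprotegerin) is a secreted decoy receptor that binds the osteoclast factor RANKL, encoded by TNFSF11, and keeps it from its receptor RANK, encoded by TNFRSF11A.

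Promoter windows of 300 bases from RefSeq (GRCh38.p14) were searched for 6 of the 9 genes, in 9 windows. TNFRSF11B was left out of this search, and no windows were found for SP7 and DLX5. Of the 9 windows, 4 are shown because they hold a match or contrast with one. RefSeq gives RUNX2 a distal and a proximal start, and counts per gene do not separate them. Capitals in the RUNX2 and SPP1 windows mark ACCACA, a core sequence bound by RUNX proteins, searched on both strands (TGTGGT on the other). Other forms of this core were not searched, so a count of 0 covers these letters only. Capitals in the MSX2 window mark TAATTA, a homeodomain core that reads the same on both strands. No matches overlapped. The windows lie on the plus strand at chr6:45328080-45328379, chr6:45422025-45422324, chr4:87975464-87975763 and chr5:174724332-174724631, in the order shown.
RUNX2 distal: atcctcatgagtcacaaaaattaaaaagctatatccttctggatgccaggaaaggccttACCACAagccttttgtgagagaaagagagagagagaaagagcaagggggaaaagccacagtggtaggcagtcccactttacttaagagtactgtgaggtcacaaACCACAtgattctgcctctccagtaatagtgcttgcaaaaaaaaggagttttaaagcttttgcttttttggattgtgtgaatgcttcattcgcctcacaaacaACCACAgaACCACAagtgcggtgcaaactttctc
RUNX2 proximal: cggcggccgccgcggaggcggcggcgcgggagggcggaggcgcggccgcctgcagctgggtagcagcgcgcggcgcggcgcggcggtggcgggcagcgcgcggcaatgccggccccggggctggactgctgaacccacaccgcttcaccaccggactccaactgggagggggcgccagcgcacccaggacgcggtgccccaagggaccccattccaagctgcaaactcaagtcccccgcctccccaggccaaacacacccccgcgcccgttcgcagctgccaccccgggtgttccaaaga
SPP1: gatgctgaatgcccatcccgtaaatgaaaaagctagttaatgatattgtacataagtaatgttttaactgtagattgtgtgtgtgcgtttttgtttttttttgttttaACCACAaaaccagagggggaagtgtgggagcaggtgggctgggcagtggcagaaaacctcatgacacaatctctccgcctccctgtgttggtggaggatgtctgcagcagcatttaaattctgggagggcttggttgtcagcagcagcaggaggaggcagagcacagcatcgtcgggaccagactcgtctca
MSX2: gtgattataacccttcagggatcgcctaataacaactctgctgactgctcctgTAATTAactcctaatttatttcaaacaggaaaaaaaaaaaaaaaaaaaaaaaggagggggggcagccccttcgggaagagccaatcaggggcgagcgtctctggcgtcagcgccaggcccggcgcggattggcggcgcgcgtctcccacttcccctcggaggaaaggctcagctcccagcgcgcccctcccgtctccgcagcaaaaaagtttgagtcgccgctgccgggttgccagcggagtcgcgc

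The distal RUNX2 window held 4 copies of ACCACA, and the proximal RUNX2 window held 0. Of 35116 RefSeq promoter windows of this length, 13.1% held at least 1 copy and 5 windows (0.0142%) held at least 4. The SPP1 window held 1 copy. The windows of MSX1, MSX2 and IBSP and all 3 windows of ALPL held 0. The homeodomain core was in the MSX2 window once and in none of the other 8 windows, against 4.84% of all windows. A match describes letters in the window and does not show binding. By base composition the proximal RUNX2 window (76.0% G and C) stood apart from the distal one (42.7%).

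ALKBH5 fell in all 3 knockdown libraries, which checks the labels. It stood at 19.4, 16.2 and 15.7 CPM (counts of a gene scaled to a common library size) in the knockdown libraries, against 138, 148 and 143 CPM in the scrambled libraries. The log2 fold change was −3.06 (edgeR adjusted p = 1.6e-09), and the exact 2-sided permutation p of 0.1 was the smallest that 3 against 3 libraries allow. Reads in genes numbered 19748583 to 19919797 per knockdown library and 18817181 to 23410007 per scrambled library. Of uniquely placed reads, 17.9% ± 0.66 lay outside genes in the knockdown libraries and 15.3% ± 0.23 in the scrambled libraries (SD, n = 3 each).

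Markers of the osteoblast lineage ranged from abundant to undetected in these cells, and early as well as mature markers were among the low ones. Per length of exon, COL1A1, the main collagen chain of bone, stood at 299.8 ± 19.5 RPKM (CPM divided by exon length in kilobases) in the knockdown libraries and 227 ± 5.69 RPKM in the scrambled libraries. SPARC (osteonectin) stood at 386 ± 74.4 RPKM in the knockdown and 548 ± 21.1 RPKM in the scrambled libraries. Other matrix genes, looked up after their values were seen, were scarce. COL1A2, the second chain of type I collagen, averaged 1.12 CPM in the knockdown and 4.44 CPM in the scrambled libraries, and POSTN (periostin) averaged 0.188 CPM in the knockdown and 1.49 CPM in the scrambled libraries. BGN (biglycan) averaged 1.53 CPM in the knockdown and 1.18 CPM in the scrambled libraries. ALPL lay above 14.9% of tested genes per length in the knockdown and above 20.3% in the scrambled libraries. BGLAP (osteocalcin), a product of mature osteoblasts, averaged 0.0346 CPM in the knockdown and 0.0174 CPM in the scrambled libraries, and SP7 and IBSP were at or near 0, as given further on. The label of an osteoblast lineage thus holds for part of its markers only.

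Of the 9 genes, 6 had enough reads to be tested (RUNX2, MSX1, MSX2, ALPL, SPP1 and TNFRSF11B). At a Benjamini-Hochberg adjusted p below 0.05 in edgeR's quasi-likelihood test over all 14504 tested genes, 2 were higher after ALKBH5 siRNA (RUNX2 and TNFRSF11B), 2 were lower (MSX2 and ALPL) and 2 did not pass (MSX1 and SPP1). Over all tested genes 30.8% were higher and 30.8% lower, together 61.6%, so a count of 4 in 6 is near the background. The median log2 fold change of the 6 was 0.07, against 0.01 over all tested genes. Each fold change below is ALKBH5 siRNA over scrambled siRNA.

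**Figure D1:**
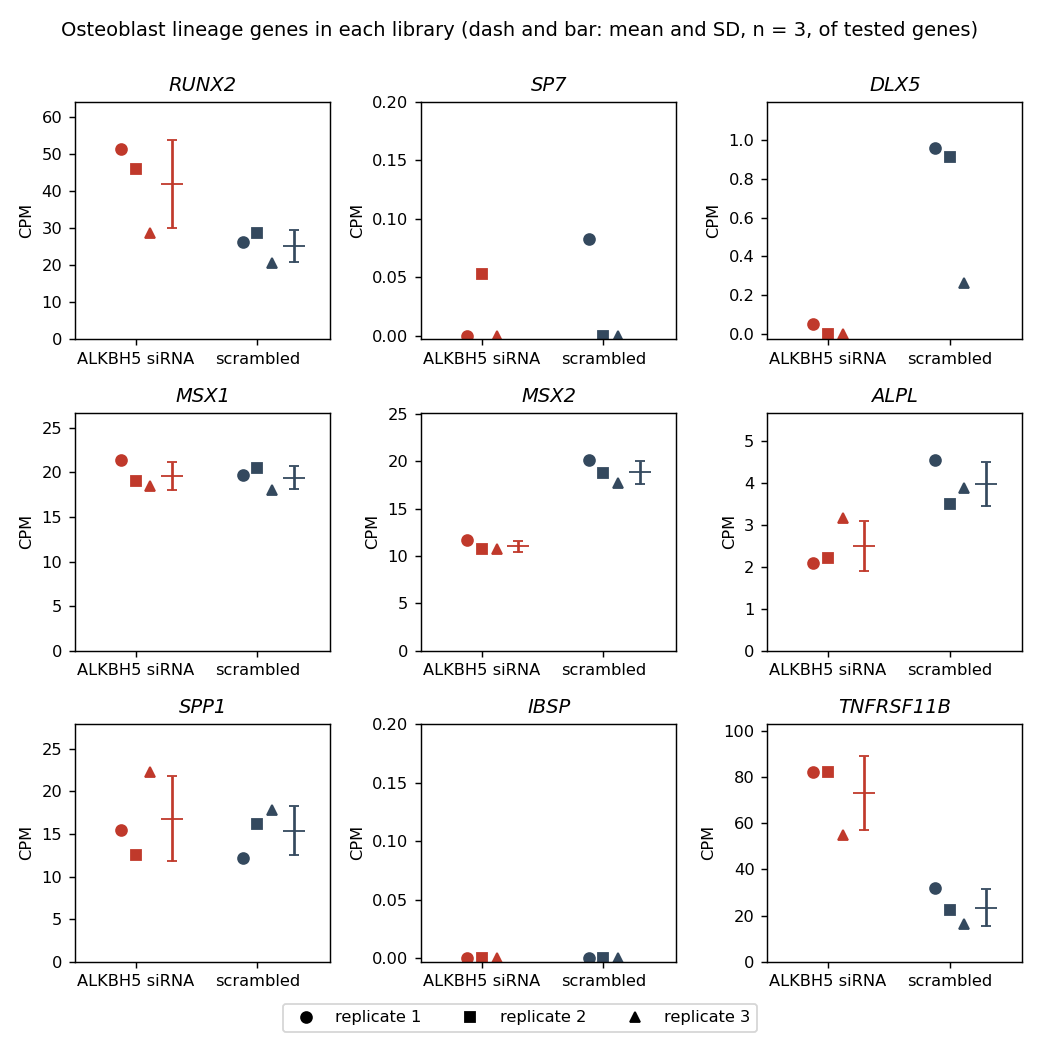
CPM of the 9 osteoblast lineage genes in each library, with ALKBH5 siRNA libraries in red and scrambled libraries in blue, symbols for the replicate number, dashes and bars for mean and SD of the 6 tested genes, and a scale per panel. TNFRSF11B libraries with ALKBH5 siRNA all lie above, and MSX2 and ALPL libraries all below, the scrambled ones, while RUNX2 libraries overlap.

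TNFRSF11B, the decoy receptor for RANKL, had the largest rise of the 6 tested genes. It stood at 82.3, 82.1 and 54.7 CPM in the knockdown libraries, against 31.9, 22.3 and 16.2 CPM in the scrambled libraries. Every knockdown library was above every scrambled library, and the third replicate was the lowest in each group. The log2 fold change was 1.63 (SE 0.26, 95% interval 1.03 to 2.23, adjusted p = 8.2e-04), a 3.10-fold rise. Of all tested genes, 92.7% had a smaller absolute log2 fold change.

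Per length of exon TNFRSF11B was first of the 9 in the knockdown libraries (30.4 ± 6.60 RPKM) and beside MSX1 and SPP1 in the scrambled libraries (9.76 ± 3.30 RPKM). Against a 1.5-fold change with glmTreat it alone of the 6 passed, where 24.8% of all tested genes did. Its spread was wide in the scrambled libraries, with a coefficient of variation of 33.8%, larger than in 95.3% of tested genes.

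Its partners in the RANKL system were scarce. TNFSF11 (RANKL) and TNFRSF11A (RANK) had 0 reads in all 6 libraries, where 3 reads over a group would be 0.0505 CPM in the knockdown and 0.0480 CPM in the scrambled libraries. TNFSF10 (TRAIL), the other ligand that osteoprotegerin binds, averaged 0.120 CPM in the knockdown and 0.392 CPM in the scrambled libraries and was too low to test. Of the 6 genes listed for this system 2 were tested. CSF1, the growth factor of osteoclast precursors, rose to 34.0 ± 2.06 CPM in the knockdown libraries, against 21.7 ± 3.68 CPM in the scrambled libraries (log2 fold change 0.65, adjusted p = 7.8e-04). TRAF6, the adaptor that carries the RANK signal, did not pass (log2 fold change −0.01, adjusted p = 0.97).

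RUNX2, the master factor of the lineage, rose on average, with groups that overlapped. It stood at 51.3, 46.0 and 28.6 CPM in the knockdown libraries, against 26.3, 28.9 and 20.6 CPM in the scrambled libraries. The third knockdown library lay just below the second scrambled library, and the other 2 knockdown libraries lay above all scrambled ones. The log2 fold change was 0.73 (SE 0.21, 95% interval 0.25 to 1.21, adjusted p = 0.014), a 1.66-fold rise. The call was lost without knockdown replicate 2 (log2 fold change 0.66, adjusted p = 0.056).

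By mean level per length of exon, RUNX2 stood between RUNX1 and RUNX3 in both groups, though in the third knockdown library RUNX2 (4.03 RPKM) lay below RUNX3 (4.12 RPKM). RUNX1, its relative in blood formation and named after its values were seen, did not pass, at 126 ± 3.51 CPM in the knockdown and 128 ± 15.0 CPM in the scrambled libraries (log2 fold change −0.02, adjusted p = 0.83). RUNX3 rose to 16.4 ± 1.71 CPM in the knockdown libraries, against 5.04 ± 0.95 CPM in the scrambled libraries (log2 fold change 1.69, adjusted p = 2.6e-06). Per length, RUNX2 made up 27.0%, 26.0% and 17.5% of the summed level of the 3 RUNX genes in the knockdown libraries, against 17.0%, 18.9% and 16.6% in the scrambled libraries. These shares overlapped between groups (exact 2-sided permutation p = 0.2). CBFB, the shared partner of RUNX proteins, rose to 140 ± 17.2 CPM in the knockdown libraries, against 108 ± 10.3 CPM in the scrambled libraries (log2 fold change 0.37, adjusted p = 0.0081).

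Reads of RUNX2 may be shared with other genes at its locus. In the GENCODE 29 annotation SUPT3H, the antisense gene AL096865.1 and RUNX2-AS1 overlap RUNX2 on the opposite strand, and no annotated gene overlaps the other 8. SUPT3H held 10 reads over the 6 libraries. The library kit keeps strand, per the labels, but the strand setting of the counting is unknown.

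SP7, which acts after RUNX2, was at or near 0. It had 0, 1 and 0 reads in the knockdown libraries and 2, 0 and 0 reads in the scrambled libraries. Both sums are within the 3 reads taken as the floor, so no fold is given.

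Nearly all DLX5 reads were in the scrambled libraries. It had 1, 0 and 0 reads in the knockdown libraries, against 23, 19 and 5 reads in the scrambled libraries. These are 0.0512, 0 and 0 CPM in the knockdown and 0.957, 0.913 and 0.262 CPM in the scrambled libraries, and all knockdown libraries lay below all scrambled ones. The ratio of the summed reads, scaled by reads in genes, was 0.0224, with an exact 95% interval of 0.000555 to 0.131 that covers counting error only. DLX5 fell short of the filter on low counts. With no filter edgeR gave an adjusted p of 1.5e-04. With the filter rerun it entered the test and was called lower without any 1 of the knockdown libraries or without scrambled replicate 3. Without scrambled replicate 1 or 2 it was not tested. It entered only through the reads of scrambled replicates 1 and 2, the group where it is high, so these calls are no separate support.

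The other DLX genes, looked up after the DLX5 reads were seen, were low as well. DLX6, which lies beside DLX5 and is expressed with it in the embryo, had 0 reads in all 6 libraries. DLX3 and DLX4 were tested and did not pass, with log2 fold changes of 0.28 and 0.02. DLX4 averaged 1.87 ± 0.50 CPM in the knockdown and 1.85 ± 0.024 CPM in the scrambled libraries. DLX1 and DLX2 averaged below 1 CPM in both groups and were not tested.

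The paralogs MSX1 and MSX2, both repressors with a homeodomain, are set side by side. MSX2 stood at 11.7, 10.7 and 10.7 CPM in the knockdown libraries, against 20.1, 18.7 and 17.7 CPM in the scrambled libraries. The groups lay well apart and each was tight, with coefficients of variation of 5.24% in the knockdown and 6.45% in the scrambled libraries. MSX2 fell, with a log2 fold change of −0.77 (SE 0.12, 95% interval −1.02 to −0.52, adjusted p = 1.1e-04).

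MSX1 stood at 21.3, 19.0 and 18.4 CPM in the knockdown libraries, against 19.7, 20.5 and 18.0 CPM in the scrambled libraries. The groups overlapped throughout. Its log2 fold change was 0.01 (SE 0.11, 95% interval −0.23 to 0.26, adjusted p = 0.92), an interval that leaves out a change of the size of MSX2.

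Set against each other within a library, MSX2 made up 35.4%, 36.1% and 36.7% of the reads of both genes in the knockdown libraries. In the scrambled libraries it made up 50.5%, 47.7% and 49.6%. The highest upper bound of the exact 95% intervals in the knockdown libraries was 40.8%, and the lowest lower bound in the scrambled libraries was 44.3%. This share does not depend on how libraries are scaled to each other. The mean share was 36.1% ± 0.64 in the knockdown libraries and 49.3% ± 1.42 in the scrambled libraries (SD, n = 3 each), a difference with an exact 2-sided permutation p = 0.1, the smallest possible here.

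**Figure D2:**
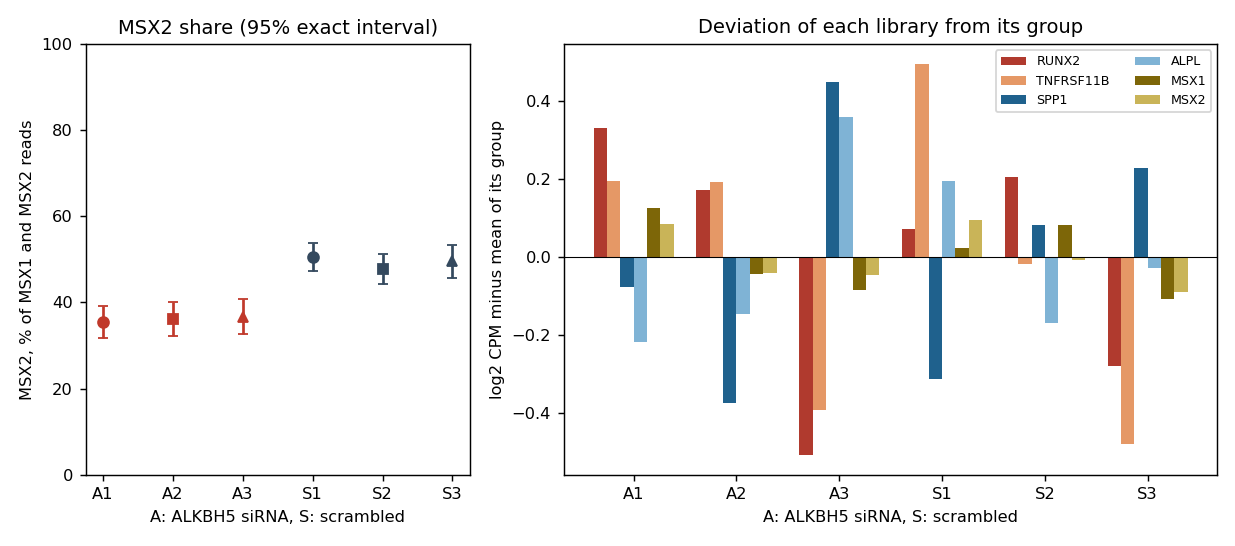
Left, MSX2 as a percentage of MSX1 and MSX2 reads in each library, with exact 95% intervals; the 3 ALKBH5 siRNA libraries (A) lie between 35.4% and 36.7% and the 3 scrambled libraries (S) between 47.7% and 50.5%. Right, log2 CPM of the 6 tested genes in each library minus the mean of its own group, where RUNX2 and TNFRSF11B are low and SPP1 is high in the third library of both groups.

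ALPL, the phosphatase of mineral formation, fell, at low levels. It stood at 2.10, 2.21 and 3.18 CPM in the knockdown libraries, against 4.54, 3.51 and 3.87 CPM in the scrambled libraries. These rest on 41, 42 and 62 reads in the knockdown libraries and 109, 73 and 74 reads in the scrambled libraries. The highest knockdown library lay below the lowest scrambled one by a small step. The log2 fold change was −0.67 (SE 0.23, 95% interval −1.16 to −0.18, adjusted p = 0.021). The call was lost without knockdown replicate 1 or 2 (adjusted p = 0.0728 and 0.0684). It was also lost when scrambled replicate 1 was left out (adjusted p = 0.0920).

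SPP1 (osteopontin) did not pass. It stood at 15.5, 12.6 and 22.3 CPM in the knockdown libraries, against 12.2, 16.1 and 17.8 CPM in the scrambled libraries. The groups overlapped, and the knockdown libraries held both the highest value and one of the 2 lowest. The log2 fold change was 0.13 (SE 0.21, 95% interval −0.34 to 0.60, adjusted p = 0.62). This interval holds both a value of −0.34 and one of 0.60.

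IBSP (bone sialoprotein) had 0 reads in all 6 libraries, and the limit of 3 reads over a group is the one given for TNFSF11. MEPE and DMP1, its neighbours in the same cluster of bone phosphoprotein genes, were scarce too: MEPE had 0 reads in all libraries, and DMP1 had 0 reads in the knockdown libraries and averaged 0.151 CPM in the scrambled libraries.

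**Figure D3:**
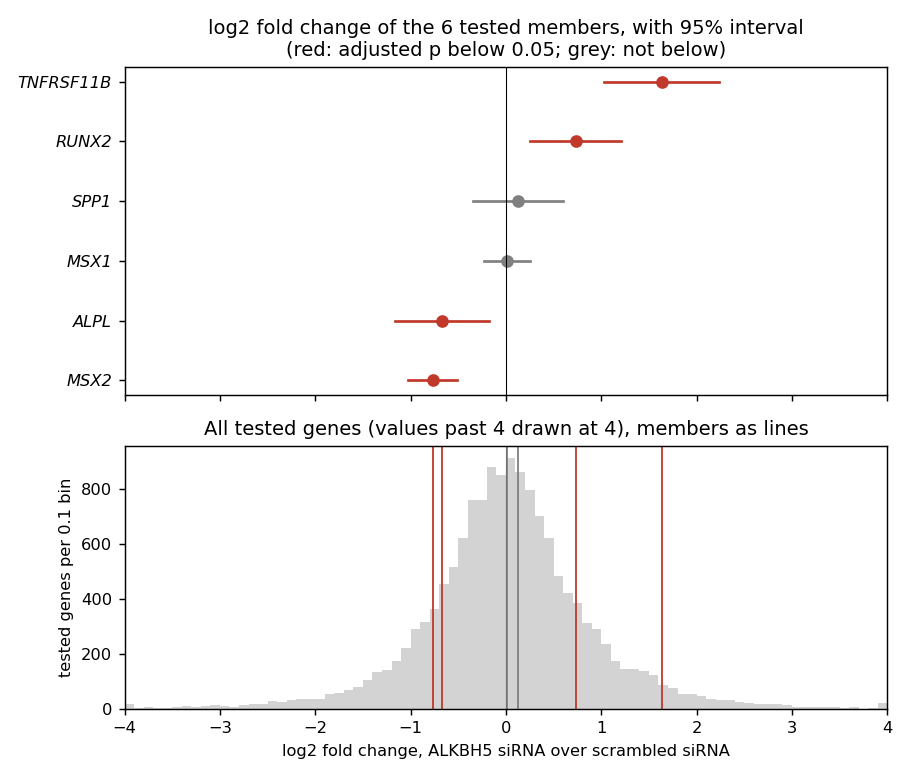
Top, log2 fold changes (ALKBH5 siRNA over scrambled siRNA) of the 6 tested osteoblast lineage genes with 95% intervals, in red where the adjusted p is below 0.05. Bottom, the same values as lines over the distribution of all 14504 tested genes; the line of TNFRSF11B at 1.63 lies in the upper tail, and those of MSX1 at 0.01 and SPP1 at 0.13 near the centre.

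Between-group overlap gave a like picture. CPM values did not overlap between groups for 3 of the 6 tested genes, against 67.4% of all tested genes. In TNFRSF11B the knockdown libraries were the higher ones, as in 33.5% of all tested genes, and in MSX2 and ALPL they were the lower ones, as in 33.9%. In absolute log2 fold change RUNX2 exceeded 68.0% of tested genes, MSX2 70.1%, ALPL 64.6%, SPP1 15.5% and MSX1 1.51%.

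The order of levels per length of exon differed between groups. In the knockdown libraries the order was TNFRSF11B (30.4 ± 6.60 RPKM), SPP1 (10.2 ± 3.06), MSX1 (10.1 ± 0.80), RUNX2 (5.92 ± 1.67), MSX2 (4.87 ± 0.25) and ALPL (0.911 ± 0.22). SPP1 and MSX1 overlapped over libraries, as did RUNX2 and MSX2, and the other neighbours did not. In the scrambled libraries the order was MSX1 (10.0 ± 0.66 RPKM), TNFRSF11B (9.76 ± 3.30), SPP1 (9.39 ± 1.75), MSX2 (8.30 ± 0.54), RUNX2 (3.56 ± 0.60) and ALPL (1.45 ± 0.19). There the first 4 overlapped with their neighbours, while MSX2 and RUNX2, and RUNX2 and ALPL, did not. The median tested gene stood at 8.07 to 8.22 RPKM in each library, so these genes were of middling or low abundance apart from TNFRSF11B in the knockdown libraries.

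Some of the genes varied together within groups, and others the opposite way. In the third knockdown library RUNX2 and TNFRSF11B lay 0.51 and 0.39 below the mean log2 CPM of that group, while SPP1 and ALPL lay 0.45 and 0.36 above it. In the third scrambled library RUNX2 and TNFRSF11B lay 0.28 and 0.48 below their group mean and SPP1 lay 0.23 above it, while ALPL lay 0.03 below. MSX1 and MSX2 stayed within 0.13 of their group means in all 6 libraries. Reads outside genes made up 18.6% in the third knockdown library, the highest value of the 6, and 15.0% in the third scrambled library, the lowest. The part of this in the deviations was not tested.

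Leaving out the third knockdown library moved both calls away from 0, to a log2 fold change of 0.95 for RUNX2 (adjusted p = 1.0e-04) and −0.88 for ALPL (adjusted p = 0.0070). TNFRSF11B and MSX2 were called with each library left out in turn, with log2 fold changes of 1.42 to 1.92 for TNFRSF11B and −0.82 to −0.72 for MSX2.

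**Figure D4:**
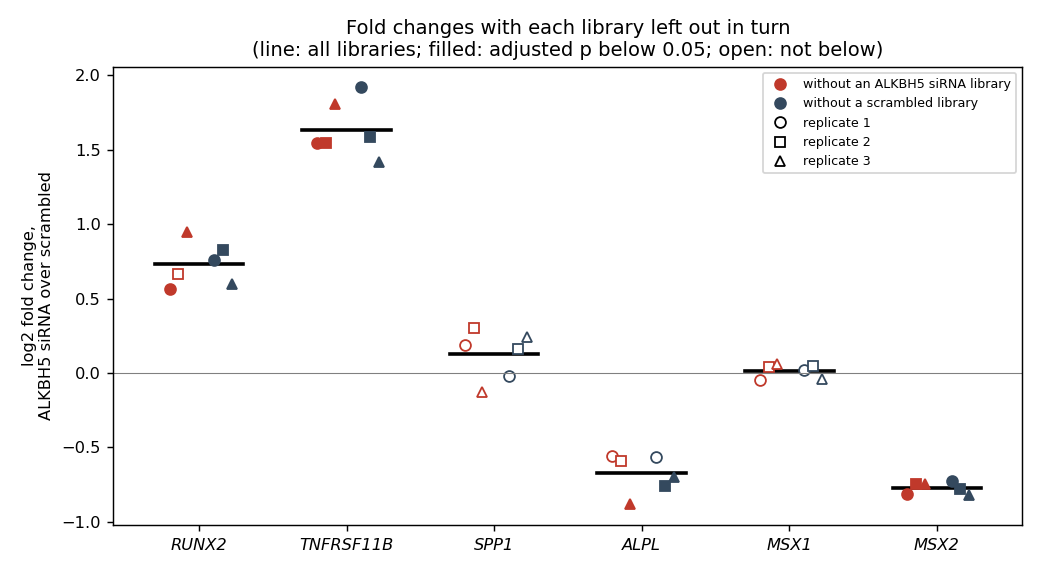
Log2 fold changes (ALKBH5 siRNA over scrambled siRNA) of the 6 tested osteoblast lineage genes with all libraries (black line) and with each library left out in turn (symbols; filled where the adjusted p is below 0.05). All symbols of TNFRSF11B and MSX2 are filled, 1 of 6 for RUNX2 and 3 of 6 for ALPL are open, and those of SPP1 and MSX1 are open and fall on both sides of 0.

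For 5 of the 6 tested genes, the tested gene with the most similar pattern is given, found by the root mean square (RMS) difference of log2 CPM, centred per gene, over the 6 libraries. The nearest to TNFRSF11B was F3, the tissue factor that starts coagulation (RMS 0.062), at 7.46 ± 1.63 CPM in the knockdown and 2.17 ± 0.66 CPM in the scrambled libraries. The nearest to RUNX2 was RGS9, a regulator of G protein signalling (RMS 0.038), and the nearest to MSX2 was SPEF2 (RMS 0.026). MAML3, a coactivator of Notch signalling, was nearest to ALPL (RMS 0.090) and NBPF15 to SPP1 (RMS 0.070). Counts of NBPF15 are uncertain because the members of its family share sequence.

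Further genes of bone formation were read from lists chosen with earlier results of these data known. Among other transcription regulators of osteoblasts 11 of 21 tested genes were higher and 5 lower, with a median log2 fold change of 0.31, against 30.8% and 30.8% and a median of 0.01 over all tested genes. JUNB, an AP-1 subunit, rose to 82.8 ± 14.1 CPM in the knockdown libraries, against 26.4 ± 3.50 CPM in the scrambled libraries (log2 fold change 1.65, adjusted p = 1.5e-06), and RUNX3 rose as given above. SOX4 fell to 55.9 ± 14.9 CPM in the knockdown libraries, against 247 ± 33.2 CPM in the scrambled libraries (log2 fold change −2.14, adjusted p = 1.9e-05). DLX6 was the gene of this list with 0 reads in all libraries.

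Among other genes of bone matrix and mineral 7 of 18 tested were higher and 3 lower, with a median log2 fold change of 0.29, where 30.8% of all tested genes were higher and 30.8% lower. Without knockdown replicate 1 the lower count was 5. SLC20A2, a sodium-dependent phosphate transporter, rose to 175 ± 34.2 CPM in the knockdown libraries, against 31.1 ± 2.90 CPM in the scrambled libraries (log2 fold change 2.49, adjusted p = 2.0e-07). P4HA1 and PLOD2, which hydroxylate collagen, rose by 0.98 and 0.56 on the log2 scale. COL1A1 rose by 0.40 (adjusted p = 4.8e-04). SPARC, chosen like COL1A2 after its values were seen, fell by 0.51 on the log2 scale (adjusted p = 0.0046). COL1A2 averaged 1.12 ± 0.46 CPM in the knockdown and 4.44 ± 4.62 CPM in the scrambled libraries and did not pass (adjusted p = 0.083). Its value rested on single scrambled libraries: the log2 fold change was −2.46 without scrambled replicate 1 (adjusted p = 0.00648), −0.67 without scrambled replicate 2 (adjusted p = 0.246) and −1.97 with all libraries. PHOSPHO1, the other phosphatase of mineral formation beside ALPL and singled out after its values were seen, fell to 0.326 ± 0.21 CPM in the knockdown libraries, against 2.08 ± 0.19 CPM in the scrambled libraries (log2 fold change −2.64, adjusted p = 7.6e-05). It rested on 11, 3 and 5 reads in the knockdown libraries and 45, 44 and 43 reads in the scrambled libraries. PHOSPHO1 passed the filter on low counts through the scrambled libraries, where it is high, so its p-value is no separate support. The log2 fold change was −3.28 without knockdown replicate 1.

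Receptors that bind osteopontin and bone sialoprotein rose in 7 of 8 tested cases and fell in 0, with a median log2 fold change of 1.34. Over all tested genes 30.8% were higher and 30.8% lower, with a median of 0.01. ITGA9 and ITGB6 were too low to test, and ITGA9 had 10 reads in the knockdown and 27 reads in the scrambled libraries. ITGAV, the alpha subunit of the main osteopontin receptors, rose to 1016 ± 121 CPM in the knockdown libraries, against 191 ± 8.45 CPM in the scrambled libraries (log2 fold change 2.41, adjusted p = 3.8e-09). Its partner ITGB3 rose to 102 ± 17.5 CPM in the knockdown libraries, against 11.7 ± 3.09 CPM in the scrambled libraries (log2 fold change 3.12, adjusted p = 5.8e-07). ITGA5 rose by 1.20 and CD44, a hyaluronan receptor that also binds osteopontin, by 1.48 on the log2 scale. ITGA8 was the tested receptor that did not pass (0.566 ± 0.63 CPM in the knockdown and 1.15 ± 1.10 CPM in the scrambled libraries). Of the ligands themselves, SPP1 did not pass and IBSP had no reads.

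**Figure D5:**
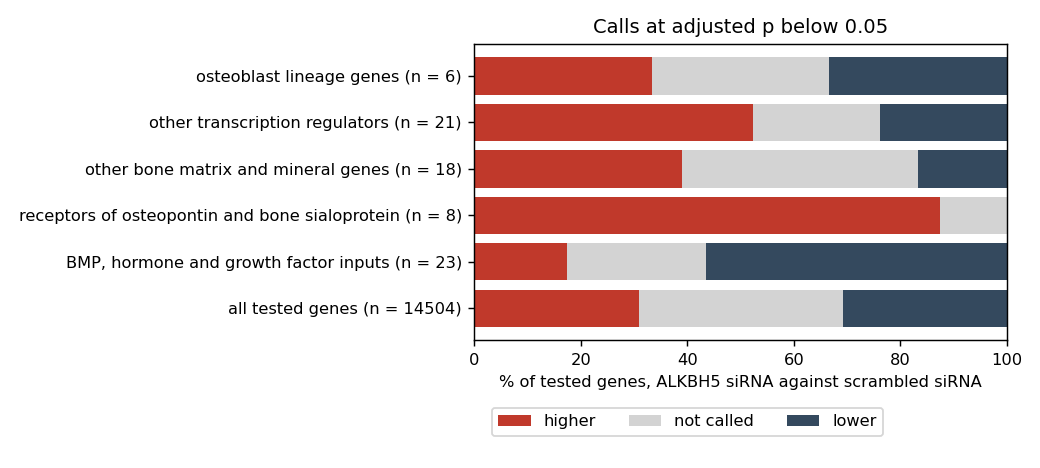
Percentage of tested genes called higher (red), not called (grey) or lower (blue) after ALKBH5 siRNA in the osteoblast lineage genes, in 4 related lists and in all tested genes. The osteoblast lineage genes (2 higher and 2 lower of 6) lie close to all tested genes (30.8% higher and 30.8% lower), whereas 7 of 8 receptors are higher and 13 of 23 BMP, hormone and growth factor inputs are lower.

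Inputs from BMPs, hormones and growth factors were lower in 13 and higher in 4 of 23 tested cases, with a median log2 fold change of −0.30. The shares over all tested genes were 30.8% lower and 30.8% higher, with a median of 0.01. BMPR1A, a type I BMP receptor, fell to 7.30 ± 1.20 CPM in the knockdown libraries, against 23.3 ± 1.85 CPM in the scrambled libraries (log2 fold change −1.67, adjusted p = 1.0e-06). FGFR2 fell by 1.14 on the log2 scale, while SMAD5, which carries the BMP signal to the nucleus, rose by 1.31. Outside the naming rule, the BMP target genes ID1, ID2 and ID3 were singled out after their values were seen. They fell by 1.09, 2.21 and 1.97 on the log2 scale. MSX2, also known as a target of BMP signalling, fell by 0.77, and MSX1 did not pass. BMP signalling itself was not measured, and a link between it and these values was not tested.

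Of 10 genes listed as neighbours of the 9, 4 were tested, 1 was higher and 2 were lower, where 30.8% of all tested genes were higher and 30.8% lower. AAAS, near SP7, fell by 0.55 and PKD2, beside SPP1, by 0.28 on the log2 scale, and STX18, near MSX1, rose by 0.45. The call of PKD2 was lost when any 1 of 5 libraries was left out, with adjusted p-values of 0.060 to 0.163.

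Markers of other cell types were few and mixed, and their part in the results above was not tested. Their counts stand beside 30.8% higher and 30.8% lower over all tested genes. Osteocyte markers had 1 of 6 tested, PDPN, which fell by 0.74, with SOST below 1 CPM and FGF23 and MEPE at 0 reads; their summed level was 15.1 to 22.3 CPM in the knockdown and 29.4 to 33.7 CPM in the scrambled libraries. PDPN, at 18.2 CPM in the knockdown and 30.5 CPM in the scrambled libraries, made up most of that sum. Of the chondrocyte markers 6 of 8 were tested, with 1 higher (ACAN, log2 fold change 0.73) and 2 lower (SOX5 at −1.15 and COL2A1 at −1.14), COL10A1 at 0 reads, and sums of 224 to 253 CPM in the knockdown and 245 to 289 CPM in the scrambled libraries. SOX9, which did not pass, made up most of the chondrocyte sum, at 178 CPM in the knockdown and 202 CPM in the scrambled libraries. Of the adipocyte markers 3 of 6 were tested and 1 was higher. PPARG, the factor that drives mesenchymal cells toward fat, rose to 43.8 ± 4.31 CPM in the knockdown libraries, against 9.22 ± 0.95 CPM in the scrambled libraries (log2 fold change 2.25, adjusted p = 3.1e-08), with the fat cell product ADIPOQ at 0 reads. The adipocyte sum was 56.5 to 64.1 CPM in the knockdown and 24.2 to 26.6 CPM in the scrambled libraries.

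Of 7 osteoclast markers 5 were in the table and 4 were tested, with OSCAR higher (log2 fold change 0.90) and ACP5 lower (log2 fold change −1.44), and sums of 21.6 to 56.1 CPM in the knockdown and 14.5 to 33.3 CPM in the scrambled libraries. MMP9 was the largest part of these sums, at 26.5 ± 17.2 CPM in the knockdown and 14.6 ± 10.5 CPM in the scrambled libraries. It did not pass (edgeR adjusted p = 0.33). The call of OSCAR was lost when knockdown replicate 3, scrambled replicate 2 or scrambled replicate 3 was left out, with adjusted p-values of 0.0536 to 0.109. Of 6 skeletal muscle markers 2 were tested and 0 were called at an adjusted or at an unadjusted p below 0.05, with MYOG and MYF5 at 0 reads and sums of 1.43 to 2.92 CPM in the knockdown and 2.07 to 3.09 CPM in the scrambled libraries. Of 5 leukocyte markers 2 were tested and PTPRC was lower (log2 fold change −1.06, adjusted p = 0.028, and 0.0878 to 0.0988 without any 1 of 4 libraries), with CD3E at 0 reads and sums of 2.76 to 5.07 CPM in the knockdown and 3.41 to 5.91 CPM in the scrambled libraries. U2OS is an established line, so these values are levels of single genes and not amounts of other cell types. Bulk RNA does not show whether a level changed in all cells of the line or in part of them.

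m6A itself was not measured in these files. As a feature of sequence, copies of GGACT, the core of the m6A consensus, were counted on the sense strand of the longest coding transcript of each gene in GENCODE 29. They numbered 5 in RUNX2 and SP7, 3 in ALPL, MSX1 and DLX5, 2 in SPP1 and 1 in MSX2, TNFRSF11B and IBSP. Per kilobase this is 0.878 for RUNX2 and 0.416 for TNFRSF11B, the higher genes, and 1.16 for ALPL and 0.446 for MSX2, the lower ones. Of the genes too low to test, DLX5 held 2.11, SP7 1.59 and IBSP 0.647 per kilobase. Of those that did not pass, MSX1 held 1.55 and SPP1 1.26. The median was 0.909 per kilobase over 3851 higher genes, 0.951 over 3921 lower genes and 0.936 over all tested genes with a coding transcript.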

How the data were processed

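Whole-number read counts for each gene symbol were deposited without scaling. Per the submitters' processing notes, hg19 was the build, CASAVA 1.8.2 was used, and HTSeq, SAMtools and TopHat2 are named without roles. No source used here gives their options, strand handling or annotation. The series table equalled the 6 single-sample files in all 23233 lines, and 0 columns matched no sample. HTSeq's summary entries (reads outside genes 15.0% to 18.6% and ambiguous reads 0.737% to 0.856% of uniquely placed reads) stayed out of library sizes and tests.

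The test was that of edgeR 4.0.16 under R 4.3.3: filterByExpr (14504 genes kept), TMM scaling and a robust quasi-likelihood fit with group as its single term, 2-sided, Benjamini-Hochberg adjusted over all tested genes, threshold 0.05. SE is the absolute log2 fold change over the root of the test's F, and intervals use its degrees of freedom. CPM use TMM factors. RPKM use exon unions of GENCODE 29 (GRCh38), found for 87.6% of tested genes, so lengths may differ from those counted. The fit was also run on simulated counts with few changed genes and the same dispersion for all genes. These data differ in both, so that run does not check the results here. Alternatives were RLE scaling, no scaling, 2 other filters, DESeq2 1.42.0, limma-voom (limma 3.58.1), no robust moderation, glmTreat against 1.5-fold, a replicate block, and each library left out.

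The members and lists were chosen with earlier results of these data known. Named genes are the 9 members, ALKBH5, up to 3 called genes per list with the smallest adjusted p, genes that explain a list, and for each tested member the gene with the smallest RMS difference of log2 CPM (prior count 2); others are marked where named. The gene nearest to MSX1 is not reported here.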

Additional observations from a re-analysis of the deposited data

How the results depend on the processing

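Of the alternatives, the ones that leave out a library and the test against a 1.5-fold change moved calls of the osteoblast lineage genes. Against a 1.5-fold change 1 gene was called higher and 0 lower, with RUNX2 at 0.73 (adjusted p = 0.298), MSX2 at −0.77 (adjusted p = 0.076) and ALPL at −0.67 (adjusted p = 0.422) on the log2 scale; a stricter null is the construction of that test. With each library left out, genes called higher ranged from 1 to 2 and genes called lower from 1 to 3; log2 fold changes ranged from 0.56 to 0.95 for RUNX2, −0.88 to −0.56 for ALPL, −0.13 to 0.30 for SPP1 and −0.049 to 0.059 for MSX1. MSX1 also changed sign with no scaling factor (−0.051), which moved the median of all genes to −0.056. TNFRSF11B and ALKBH5 were called under all 15 alternatives, and MSX2 under all but the 1.5-fold test. Counts over all tested genes under RLE, other filters, DESeq2 and limma-voom were within 1.5 times of those reported. With no filter DLX5 was also lower, which made 3. The counts with a library left out include DLX5 where it entered the test.

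The labels do not say that the replicate numbers pair libraries. Deviations of same-numbered libraries from their group means correlated at 0.331, 0.058 and 0.351, and those of unlike-numbered libraries at −0.367 to 0.077. The fit with the replicate number as a block called 2 higher and 2 lower members, with RUNX2 at 0.71 and TNFRSF11B at 1.66 on the log2 scale, and 4865 higher and 4895 lower genes in all. Without it, 4471 were higher and 4466 lower. For RUNX2 the SE was 0.104 with the block and 0.212 without it (edgeR adjusted p = 3.9e-05 and 0.014). For TNFRSF11B the SE was 0.104 with the block and 0.257 without it (edgeR adjusted p = 1.1e-08 and 8.2e-04). Each knockdown library correlated best with the scrambled library of its own number. Scrambled replicate 2 correlated best with knockdown replicate 1 (0.077).

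Counts in the other lists moved as well; the alternatives were extended to these lists and to other named genes after seeing the data. Against a 1.5-fold change 4 higher and 3 lower transcription regulators, 3 higher and 2 lower matrix and mineral genes, 2 higher and 8 lower BMP, hormone and growth factor inputs and 6 higher receptors were called, and 0 higher genes of the RANKL system. With no filter that system had 2 higher and 1 lower gene and osteocyte markers 2 lower ones. With no robust moderation 5 matrix and mineral genes were lower, and with the replicate block 1 receptor was lower and 2 osteoclast markers were higher. Without knockdown replicate 3, 2 adipocyte markers were higher, and without scrambled replicate 3, 1 osteocyte marker was higher.

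Against a 1.5-fold change the calls of COL1A1, CBFB, PLOD2, CSF1, SPARC, PDPN, ACAN, AAAS, STX18, PKD2, OSCAR, PTPRC, RGS9, SPEF2 and MAML3 were lost. PTPRC was not called by DESeq2 (adjusted p = 0.0711) and fell short of the filter of 1 CPM in 3 libraries, and PKD2 was not called by limma-voom (adjusted p = 0.0522). COL1A2 was called lower with no robust moderation (edgeR adjusted p = 0.0246) and with no scaling factor (edgeR adjusted p = 0.0474). Among other named genes, values near 0 changed sign when single libraries were left out, between −0.107 and 0.267 for NBPF15 and −0.125 and 0.026 for RUNX1; the cause was not tested. Depth limits SP7, IBSP and DLX5, and the interval given for DLX5 covers counting error only.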
